A study of Mus musculus with 10 samples.

Results

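Calmodulin, the calcium/calmodulin-dependent kinases (CaM kinases) and neurogranin were described across 10 mouse hippocampi. The members were the probe sets that the platform annotation assigns to 1 gene symbol only, that symbol being Calm2, Calm3, Camk2a, Camk2b, Camk2d, Camk2g, Camk4, Nrgn or Itpka. A probe set is a group of short probes for 1 transcript. The rule found 6 of the 9 genes, out of 8251 genes measured in all, with 7 of the 12422 probe sets that are not controls: 2 probe sets for Camk2a and 1 each for Calm2, Camk2b, Camk2d, Camk4 and Nrgn. Calm3, Camk2g and Itpka had none under this rule and were dropped.

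The mice were 30-month-old C57BL/6 males, 5 calorie restricted and 5 on a control diet, and each hippocampus was measured on 1 array. No transgene or other treatment is named in the labels, and neither the size of the restriction nor its starting age was found in the sources used here. Whole hippocampus is a mixture of cell types, so fewer cells of a type and less RNA per cell cannot be told apart in any value below.

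As background, calmodulin is a small protein that binds calcium and then docks onto enzymes to switch them on. In hippocampal pyramidal neurons its best known targets are CaM kinase II (CaMKII), a large ring of alpha and beta subunits that is abundant at synapses and needed for long-term potentiation, and CaM kinase IV, a nuclear kinase that phosphorylates the transcription factor CREB. Neurogranin is a postsynaptic protein of forebrain principal neurons that holds calmodulin while calcium is low and lets it go when calcium rises.

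Promoter sequences were set out for Nrgn, Camk2b and Camk2d, the members with both a probe set and a promoter window available here. They were not chosen by their signals. Over the arrays Camk2b was steady, Nrgn varied in both diets and Camk2d varied mainly under calorie restriction. A link between promoter sequence and signal was not tested. Each window of 300 bases spans the gene's start and is given 5′ to 3′ on the gene's own strand, from RefSeq sequences of GRCm38.p6, whose table held 5 of the 9 genes. The Nrgn window is chr9:37552696-37552995 on the minus strand, the Camk2b window chr11:6065699-6065998 on the minus strand and the Camk2d window chr3:126596701-126597000 on the plus strand. Capitals mark GGGCGG, the GC box bound by Sp1, or its reverse complement CCGCCC.
Nrgn: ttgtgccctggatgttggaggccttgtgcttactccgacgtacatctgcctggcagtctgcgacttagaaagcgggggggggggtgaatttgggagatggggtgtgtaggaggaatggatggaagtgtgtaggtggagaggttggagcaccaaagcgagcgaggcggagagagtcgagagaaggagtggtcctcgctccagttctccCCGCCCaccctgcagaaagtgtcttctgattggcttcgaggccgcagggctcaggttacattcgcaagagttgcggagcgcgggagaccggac
Camk2b: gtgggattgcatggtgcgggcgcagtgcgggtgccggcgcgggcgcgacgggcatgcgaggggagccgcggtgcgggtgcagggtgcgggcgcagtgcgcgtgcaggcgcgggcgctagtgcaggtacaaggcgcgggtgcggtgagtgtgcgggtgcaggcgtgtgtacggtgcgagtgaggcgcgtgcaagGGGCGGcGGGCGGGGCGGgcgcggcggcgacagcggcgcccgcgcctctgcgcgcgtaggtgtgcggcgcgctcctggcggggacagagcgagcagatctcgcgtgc
Camk2d: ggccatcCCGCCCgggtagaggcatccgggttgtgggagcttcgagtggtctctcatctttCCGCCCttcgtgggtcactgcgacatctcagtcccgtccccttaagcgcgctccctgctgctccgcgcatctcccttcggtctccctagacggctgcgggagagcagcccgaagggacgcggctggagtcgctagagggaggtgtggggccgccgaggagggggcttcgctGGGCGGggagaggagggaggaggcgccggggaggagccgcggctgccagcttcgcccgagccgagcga
The GC box was found 1 time in the Nrgn window and 3 times each in the Camk2b and Camk2d windows, where 2 of the 3 in Camk2b share a base. It occurs on either strand in 35.7% of all 32851 promoter windows of the table. Neither the CREB element TGACGTCA, found in 1.79% of windows, nor its half-site TGACG, found in 20.8%, nor the TATA box TATAAA, found in 13.6%, was present in these 3 windows on either strand.

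Signals below are the deposited MAS5 intensities, rescaled so that every array has the same median over the tested probe sets, and means and changes are on the log2 scale. A change is calorie restricted minus control. A probe set was tested when its mean log2 intensity reached 6.85, the lowest value tested, which left 7453 of 12422 and 4 of the 7 members: Calm2, Camk2b, Nrgn and 1 of the 2 Camk2a probe sets. It passed at a limma Benjamini-Hochberg adjusted p under 0.05 over all 7453. None of the 4 tested members passed (0 of 4; 1 of 4 had an unadjusted p under 0.05), against 11.3% of all tested probe sets (7.72% higher and 3.57% lower), of which 30.7% had an unadjusted p under 0.05. In none of the 7 members were the diets separated without overlap, against 13.3% of tested probe sets. The members differed widely between mice of the same diet, as the plot of member signals by array shows. P-values measure the spread between these mice.

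**Figure D1:**
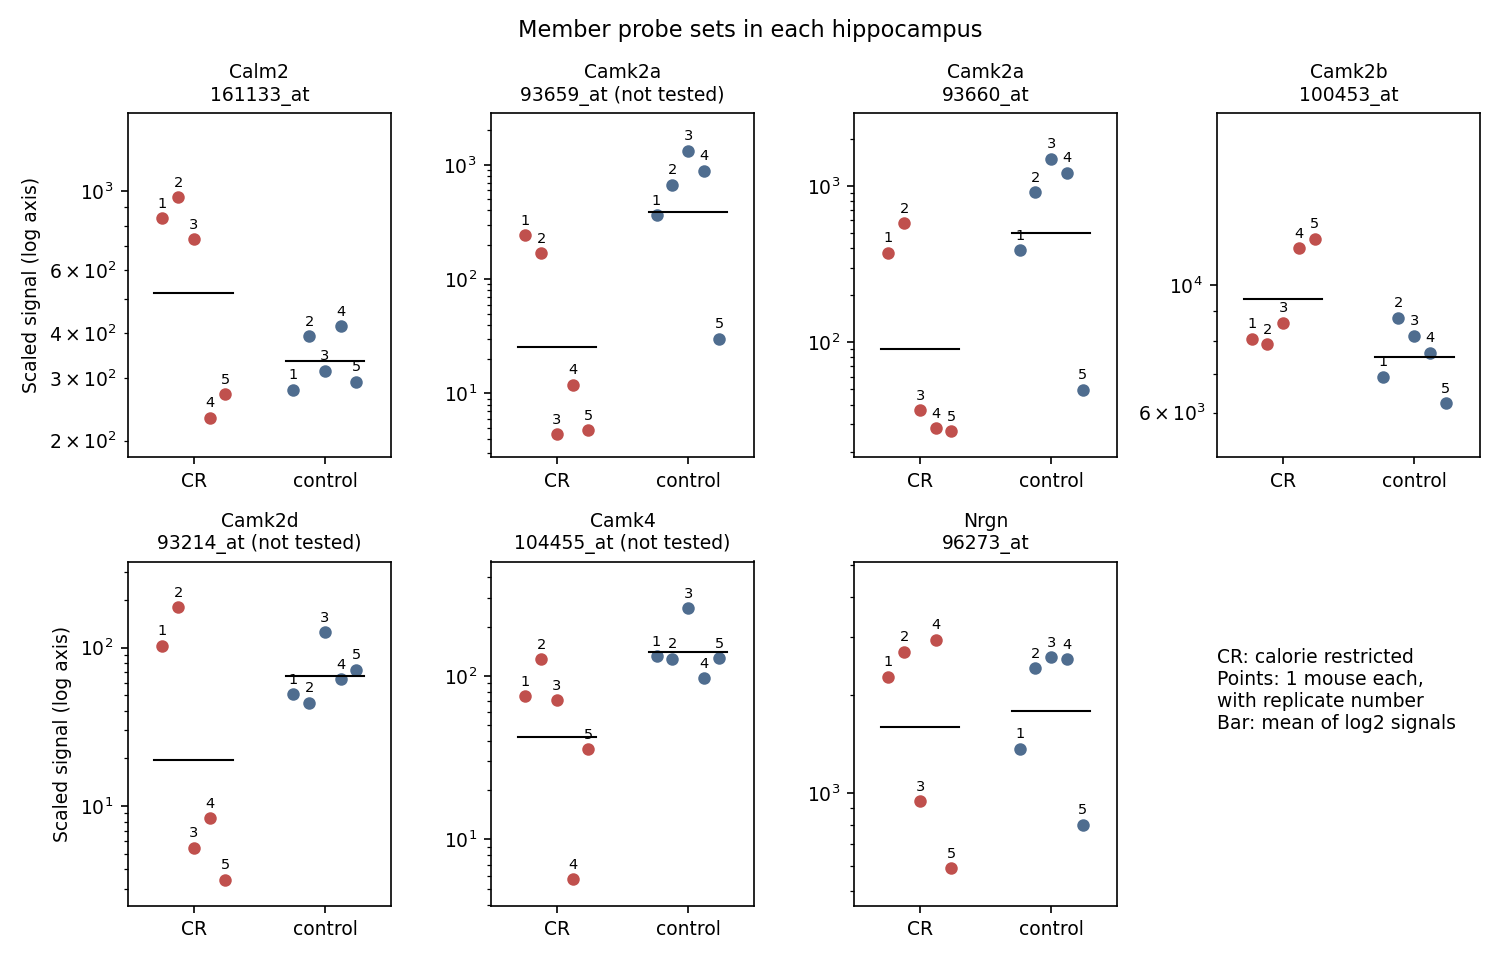
Scaled signal (log axis) of the 7 member probe sets in each hippocampus, calorie restricted (CR) left of control; points are single mice with their replicate numbers and bars the means of the log2 signals (n = 5 per diet). Camk2a sits high in controls 1 to 4 and in calorie restricted mice 1 and 2, and low in the other 4 mice, while Camk2b varies little.

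Arrays and tissue were checked first. The 3′ over 5′ signal ratio of the Gapdh and Actb control probe sets, which grows when RNA is broken, averaged 2.88 ± 2.57 under calorie restriction and 0.16 ± 0.24 under the control diet on the log2 scale (SD, n = 5 each). The exact two-sided permutation p was 0.00794, and 0.00794 adjusted over 3 measures, the smallest that 5 arrays against 5 can give. The Gapdh ratio was 82.7 and 160.7 in calorie restricted replicates 3 and 5, against 1.24 to 1.98 in the other calorie restricted mice and 0.815 to 1.53 in control mice. Bacterial spike-in signal averaged 13.05 ± 0.47 under calorie restriction and 11.12 ± 0.56 under the control diet (SD, n = 5 each), with the same exact permutation p of 0.00794. Neither measure overlapped between the diets. The lowest calorie restricted and highest control values were 0.779 and 0.454 for the mean log2 3′ over 5′ ratio. For spike-in signal they were 12.41 and 11.80. Fits below with these measures as covariates therefore cannot tell diet apart from them. Of the 9 marker genes of hippocampal pyramidal and granule neurons, all 9 had a probe set, none was at the floor, and their summed signal ran from 7238 to 12584 in calorie restricted and from 7269 to 8425 in control mice. Among these, Prox1 of granule neurons lay below the filter, 1 gene rose and 1 fell. Choroid plexus genes, 4 of 5 on the array, summed to 506 to 15749 in calorie restricted and 2450 to 10076 in control mice. Striatum genes, 3 of 6 on the array, summed to 1831 to 7052 in calorie restricted and 1243 to 2202 in control mice. Of these only Penk passed, with a change of 1.44 (limma adjusted p = 0.0347). Interneuron genes, with 6 of 6 on the array, summed to 23356 to 31611 in calorie restricted and 12283 to 17733 in control mice, and 4 of them rose. Gad2 of this list lay below the filter and went the other way, with a difference of -2.23 and no test. The sums also did not overlap between the diets for pan-neuronal genes (9 of 10 on the array), at 51104 to 65201 in calorie restricted and 37099 to 49901 in control mice. Of these Thy1 rose by 0.85 (limma adjusted p = 0.023) and Syt1 fell by 3.34 (0.0141). Snap25 at 0.69 (0.0646) and Map2 at -2.76 (0.0539) did not pass. Astrocyte sums (7 of 8 genes on the array) did not overlap either, at 23350 to 34315 in calorie restricted and 15429 to 20532 in control mice. There 0 genes rose and 1 fell, Atp1b2, by 2.06 (limma adjusted p = 0.00762). All these sums are of linear signals, so the genes with the highest signals weigh most and the sums give no common direction. The part of these marker differences in the results below was not tested.

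Calm2, a gene for calmodulin itself (probe set 161133_at), split the calorie restricted mice. Its signal was 839, 963, 735, 232 and 270.1 in calorie restricted replicates 1 to 5, against 278, 392, 314, 419 and 293 in control replicates 1 to 5. Calorie restricted mice 1, 2 and 3 lay above every control mouse, and mice 4 and 5 lay below every control mouse. The log2 means were 9.02 ± 0.97 under calorie restriction and 8.39 ± 0.26 under the control diet (SD, n = 5 each). The change was 0.63 ± 0.39 (SE), with a 95% interval from -0.22 to 1.47 and a limma adjusted p of 0.291, so it did not pass. The Gapdh 3′ over 5′ ratios were 1.29, 1.24 and 82.7 in the mice that stood high and 1.98 and 160.7 in those that stood low. With RNA quality as a covariate the change was 1.01 (limma adjusted p = 0.221). Without calorie restricted replicates 3 and 5 the change was 0.77 (limma adjusted p = 0.227).

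Nrgn, the gene for neurogranin (probe set 96273_at), had nearly the same mean in both diets and a wide range in each. Its signal was 2277, 2714, 945, 2955 and 589 in calorie restricted replicates 1 to 5, against 1369, 2413, 2611, 2577 and 802 in control replicates 1 to 5. The low mice were calorie restricted 3 and 5 and control 5, and the ranges of the diets overlapped almost fully. The log2 means were 10.63 ± 1.03 under calorie restriction and 10.80 ± 0.75 under the control diet (SD, n = 5 each). The change was -0.16 ± 0.48 (SE), with a 95% interval from -1.19 to 0.87 and a limma adjusted p of 0.837. Its direction rested on single arrays: it was 0.025 without calorie restricted replicate 3, 0.20 without replicate 5 and 0.57 without both, where the limma adjusted p was 0.314. With RNA quality as a covariate it was 0.95 (limma adjusted p = 0.139).

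Camk2a encodes the alpha subunit of CaMKII, the most studied memory kinase of the forebrain, and had 2 probe sets. The tested one, 93660_at, had 374, 576, 36.8, 28.1 and 27.0 in calorie restricted replicates 1 to 5, against 387, 913, 1493, 1215 and 49.7 in control replicates 1 to 5. The other, 93659_at, had 243, 169.5, 4.43, 11.95 and 4.76 in calorie restricted mice, against 361, 668, 1335, 887 and 30.2 in control mice. In both probe sets calorie restricted mice 3, 4 and 5 and control mouse 5 formed the low end. These 4 mice were also the 4 with the highest Gapdh 3′ over 5′ ratios. The ratios were 82.7, 1.98 and 160.7 in calorie restricted mice 3, 4 and 5 and 1.53 in control mouse 5. They were 1.24 to 1.29 in calorie restricted mice 1 and 2 and 0.815 to 0.940 in control mice 1 to 4. The same did not hold for the mean log2 ratio of Gapdh and Actb together. On that measure control mouse 5, at 0.454, lay below calorie restricted mice 1 and 2, at 0.794 and 0.779. The part of RNA quality in the Camk2a signals was not tested. Calorie restricted mouse 1 lay below control mice 1 to 4 in both probe sets, and mouse 2 in 93659_at but not in 93660_at. After each was set to its own mean over the arrays, the 2 probe sets differed by a root mean square of 0.97 on the log2 scale over 10 arrays.

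The tested Camk2a probe set had log2 means of 6.50 ± 2.17 under calorie restriction and 8.97 ± 2.01 under the control diet (SD, n = 5 each). Its change was -2.47 ± 1.07 (SE), or a signal 0.180 times that of control mice, with a 95% interval from -4.80 to -0.14. The limma p was 0.0392 before and 0.142 after adjustment, so the transcript did not pass. Its mean under calorie restriction lay below 6.85, so it entered the test through the control mice, where it was high, and the p-values are to be read with that limit. The change was -3.31 with control replicate 5 left out (limma adjusted p = 0.0537). It was -1.46 when calorie restricted replicates 3 and 5 were left out (limma adjusted p = 0.433). With RNA quality as a covariate it was -0.65 (limma adjusted p = 0.780). The 93659_at probe set, at a mean log2 intensity of 6.63, fell under the filter; its means were 4.66 ± 2.81 under calorie restriction and 8.59 ± 2.17 under the control diet (SD, n = 5 each), a difference of -3.93 with no test. When the filter was dropped it had -3.79 with a limma adjusted p of 0.0795. Background signal was not analysed here, so sizes that involve signals this low are uncertain.

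The spread of Camk2a among control mice was itself extreme. The SD of 2.01 in 93660_at was the largest of the 7453 tested probe sets among control mice, whose median SD was 0.28, and 93659_at at 2.17 exceeded all of them. This rested on control mouse 5: over the other 4 control mice the SDs were 0.86 and 0.79 in 93660_at and 93659_at, with 5.92% and 6.96% of tested probe sets above them. Control mouse 5 had the highest Gapdh 3′ over 5′ ratio of the control mice, 1.53 against 0.815 to 0.940 in the other 4, with an Actb ratio of 1.22 against 1.05 to 1.61. Its summed pyramidal and granule neuron marker signal was also the lowest of the control mice, 7269 against 7872 to 8425. The part of RNA quality and of these marker genes in its low Camk2a signal was not tested. In this mouse 26 of 7453 tested probe sets (0.349%) lay 2 or more log2 units under the mean of the other 4 control mice. For controls 1 to 4 such counts were 36, 25, 55 and 44. Control mouse 5 was the lowest control array in 4 of the 7 members, both Camk2a probe sets, Camk2b and Nrgn, and in 20.2% of tested probe sets.

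**Figure D2:**
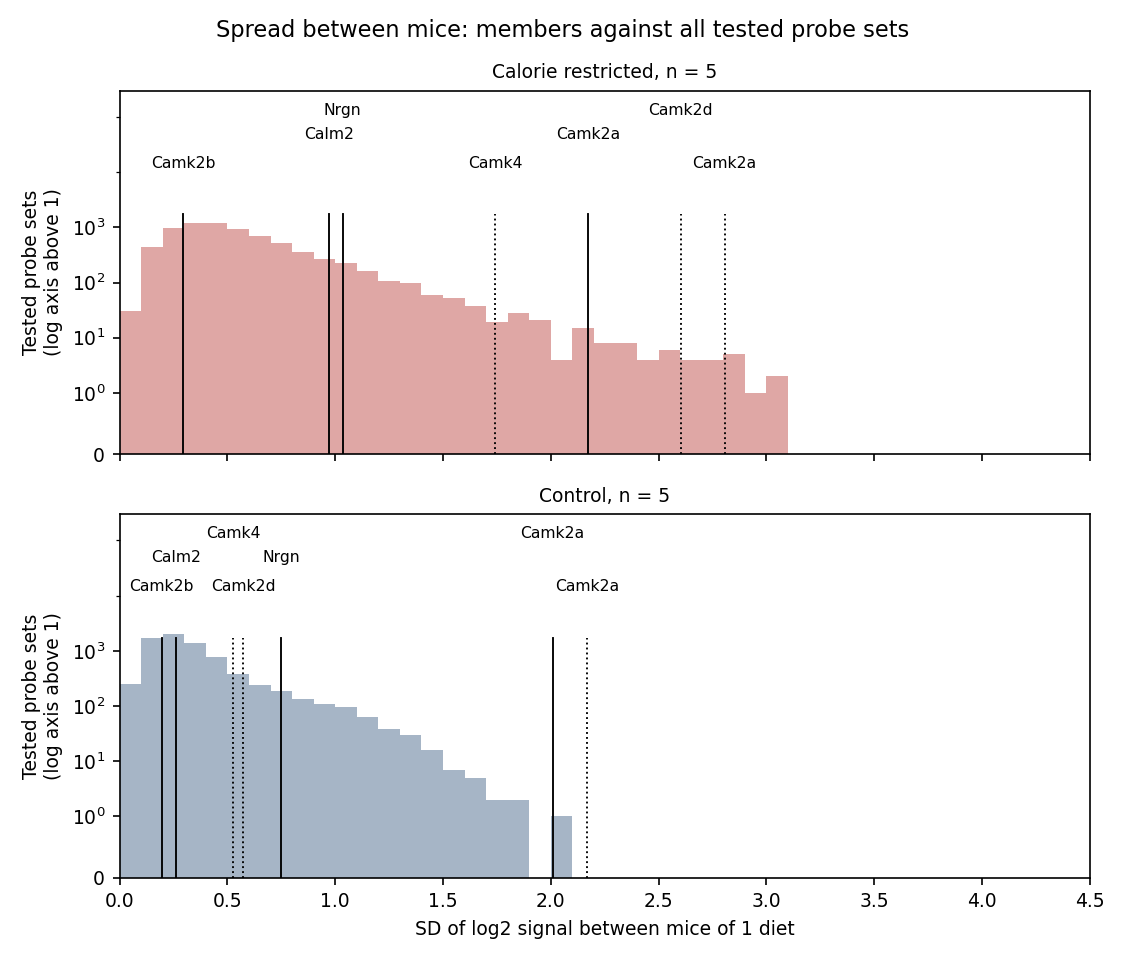
SD of the log2 signal between mice of 1 diet (x axis) for all 7453 tested probe sets (bars, count on a log axis above 1) in calorie restricted mice (above) and control mice (below), with lines at the members, dotted where a member was not tested. In control mice the Camk2a probe sets lie at 2.01 and 2.17, at the far end, and Camk2b lies at 0.20.

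Camk2b (probe set 100453_at), for the beta subunit of CaMKII, which links the kinase to actin, was the steadiest member. Its signal was 8065, 7886, 8597, 11586 and 12030.2 in calorie restricted replicates 1 to 5, against 6925, 8776, 8168, 7629.6 and 6229 in control replicates 1 to 5. Calorie restricted mice 4 and 5 were higher than every control mouse and the other 3 lay within the control range. The log2 means were 13.21 ± 0.29 under calorie restriction and 12.87 ± 0.20 under the control diet (SD, n = 5 each). The change was 0.34 ± 0.18 (SE), with a 95% interval from -0.06 to 0.74, and did not pass (limma adjusted p = 0.229). It turned to -0.28 when arrays were quantile normalized (limma adjusted p = 0.276), so no direction is given for it. Larger SDs than its own were found in 81.7% of tested probe sets in calorie restricted and 75.1% in control mice. The mice in which Camk2a was lowest, calorie restricted 3, 4 and 5, had Camk2b signals of 8597 or more. Control mouse 5, which was also low in Camk2a, went the other way, with the lowest Camk2b signal of either diet, 6229.

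Camk2d (probe set 93214_at), for the delta subunit of CaMKII, which is best known from heart muscle and is also present in brain, lay below the filter at a mean log2 intensity of 5.17 and was not tested. Its signal was 103, 179, 5.46, 8.37 and 3.45 in calorie restricted replicates 1 to 5, against 50.6, 45.0, 125, 63.0 and 72.5 in control replicates 1 to 5. Calorie restricted mouse 2 was above every control mouse, mouse 1 was within the control range, and mice 3, 4 and 5 were below it. The log2 means were 4.29 ± 2.60 under calorie restriction and 6.06 ± 0.57 under the control diet (SD, n = 5 each), a difference of -1.76. With RNA quality as a covariate the difference was 0.56. Only 16 tested probe sets (0.215%) had a larger SD among calorie restricted mice.

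Camk4 (probe set 104455_at), for CaM kinase IV, was also below the filter, at 6.27, and was not tested. Its signal was 75.2, 126, 71.2, 5.72 and 35.5 in calorie restricted replicates 1 to 5, against 132, 127, 258, 96.7 and 128 in control replicates 1 to 5. Calorie restricted mice 1, 3, 4 and 5 lay below the lowest control mouse, and mouse 2 lay within the control range. The log2 means were 5.41 ± 1.74 under calorie restriction and 7.13 ± 0.53 under the control diet (SD, n = 5 each), a difference of -1.72. Mouse 4 was the lowest, at 5.72, and its Gapdh 3′ over 5′ ratio of 1.98 was the third highest of all 10 mice. With RNA quality as a covariate the difference was -1.68. When the filter was dropped, Camk2d and Camk4 had limma adjusted p of 0.322 and 0.170.

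The members thus varied in different ways among the calorie restricted mice. Mouse 4 was low in Camk2a, Camk2d, Camk4 and Calm2 and had the highest Nrgn signal of all 10 mice. Mouse 3 was low in Camk2a, Camk2d and Nrgn and high in Calm2. Mouse 5 had the lowest calorie restricted signal in 3 of the 7 members, and in 29.4% of tested probe sets. In all 7 members the SD was larger in calorie restricted than in control mice, as it was in 76.7% of tested probe sets, whose median SDs were 0.49 and 0.28 in calorie restricted and control mice.

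The genes whose pattern was most like each member were found by the smallest root mean square difference of log2 signals over the 10 arrays, each set to its own mean, among 6731 other tested probe sets of 1 symbol. For Camk2a they were Nsmf, a synapse-to-nucleus messenger of NMDA receptors, at 0.60, Ywhag, a 14-3-3 adaptor protein, at 0.74 and Vamp2, the SNARE protein of synaptic vesicles, at 0.96, against a median of 2.33. Nsmf had signals of 364, 459, 56.5, 79.7 and 36.0 in calorie restricted replicates 1 to 5, against 742, 877, 1415, 778 and 54.7 in control replicates 1 to 5. It shared with Camk2a the low signal in control mouse 5 and in calorie restricted mice 3, 4 and 5. For Nrgn they were Pfkl, the liver-type phosphofructokinase, at 0.25, Actl6b, a neuronal subunit of BAF chromatin remodelling complexes, at 0.27 and Ptpa, an activator of protein phosphatase 2A, at 0.27, against a median of 0.98. For Calm2 they were Egr2, an activity-induced transcription factor, at 0.27, Uhmk1, a kinase, at 0.28 and Cwf19l1 at 0.33, against a median of 0.85. These genes were chosen for likeness on the same arrays, which also share RNA quality.

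**Figure D3:**
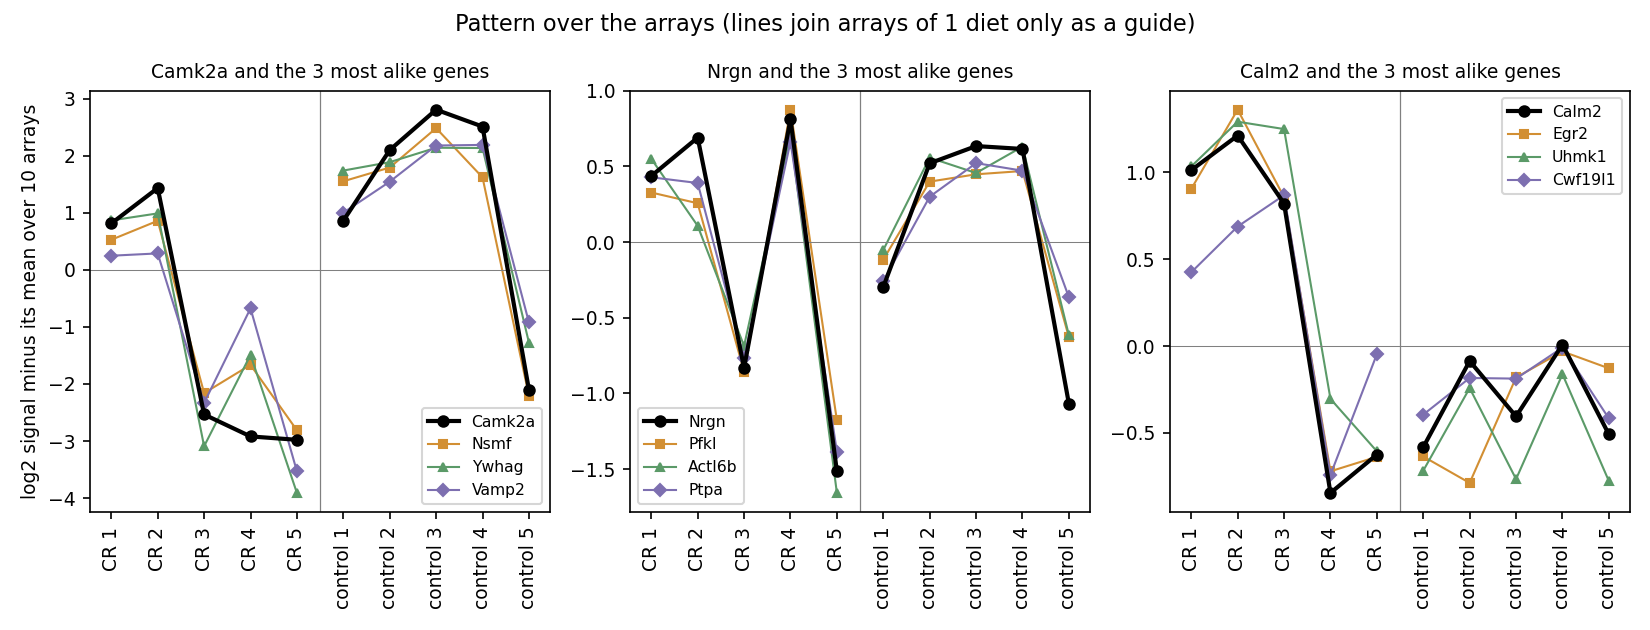
log2 signal minus its own mean over 10 arrays (y axis) for Camk2a, Nrgn and Calm2 (black) and the 3 most alike genes of each, calorie restricted (CR) arrays left of control arrays. Camk2a and its 3 genes are low in control 5 and in CR 3 to 5, Nrgn and its genes are high in CR 4, and Calm2 and its genes are high in CR 1 to 3 only.

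The wider calmodulin pathway was followed in 5 lists of 103 genes, of which 52 had a tested probe set. Of these, 9 rose, 4 fell and 39 did not pass, a share of 25.0% against 11.3% over all tested probe sets. The lists were chosen with earlier results of these data known, so the difference between these shares is no test of the pathway. The median change of the 52 was 0.034, against 0.062 over all tested probe sets. The split of directions depended on the scaling: 7 rose and 9 fell on the signals as deposited and 6 rose and 6 fell under quantile normalization, while all tested probe sets had 575 higher and 266 lower here, 306 higher and 577 lower as deposited, and 322 higher and 279 lower under quantile normalization. Leaving out 1 array moved the count of calls from 13 to 7 without calorie restricted replicate 3 or control replicate 2, 3 or 4, and to 8 without control replicate 1. With RNA quality as a covariate, 4 of the 13 genes passed, Basp1, Ppp3cb, Pde1b and Egr1, 9 did not, and 3 other genes did. RNA quality did not overlap between the diets, so this fit cannot tell diet and RNA quality apart.

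In the list of proteins that bind and hold calmodulin, which also included the calmodulin-like Calm4, 6 genes were tested. Of these 3 rose, 1 fell and 2 did not pass, Calm4 among them, with a median change of 0.82. Gap43, a growth cone protein related to neurogranin, rose by 0.87 ± 0.24 (SE; limma adjusted p = 0.0385). Basp1, another growth cone protein, rose by 1.22 ± 0.22 (limma adjusted p = 0.00937). Marcks, a substrate of protein kinase C that also sequesters calmodulin, rose by 1.14 ± 0.23 (limma adjusted p = 0.0121), and its relative Marcksl1 fell by 1.39 ± 0.38 (limma adjusted p = 0.0364). In Basp1, Marcks and Marcksl1 the diets did not overlap, and in Gap43 they did. Gap43 was the least firm, passing in 7 of 22 alternatives, and it had 0.66 (limma adjusted p = 0.0685) on the signals as deposited. Basp1 had 0.30 under quantile normalization (limma adjusted p = 0.218), and the probe sets of Basp1 and Gap43 can match several transcripts. Fitted with RNA quality as a covariate, Basp1 was 0.86 (limma adjusted p = 0.0438), Marcks 0.75 (0.0681), Marcksl1 -0.65 (0.290) and Gap43 0.50 (0.242).

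The list of other calmodulin-dependent kinases and CaMKII regulators held 20 genes, of which 8 had a probe set and 6 were tested. None of the tested genes was a CaMKII regulator, and CaM kinase I and the CaM kinase kinases were not tested either. Of the 6 tested genes 0 rose and 0 fell in limma (1 of 6 had an unadjusted p under 0.05). Their median change was -0.32, with 1 of 6 above 0. Phka1, a regulatory subunit of phosphorylase kinase, had -1.02 ± 0.33 (SE; limma adjusted p = 0.0626). Dapk2, a death-associated kinase, had -0.33 ± 0.21, Mylk, the myosin light chain kinase, -0.24 ± 0.19, and Pnck, a CaM kinase I relative, -0.46 ± 0.46, with limma adjusted p of 0.315, 0.403 and 0.517.

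Among the other enzymes and channels that calmodulin or calcium stores act on, 18 genes were tested, of which 2 rose and 2 fell, with a median change of 0.074. Ppp3cb, a catalytic subunit of the phosphatase calcineurin, had 541, 304, 264, 338 and 270.5 in calorie restricted replicates 1 to 5, against 1199, 1313, 1170.4, 914 and 1214 in control replicates 1 to 5. Every calorie restricted mouse was lower than every control mouse, and Ppp3cb fell by 1.80 ± 0.22 (SE; limma adjusted p = 0.00199). Ryr3, a calcium release channel of the endoplasmic reticulum, fell by 1.06 ± 0.24 (limma adjusted p = 0.0208), while another Ryr3 probe set pointed upwards without passing. Pde1b, a calmodulin-activated phosphodiesterase, rose by 1.07 ± 0.20 (limma adjusted p = 0.00937). Adcy8, a calmodulin-stimulated adenylyl cyclase, rose by 2.21 ± 0.51 (limma adjusted p = 0.0218), with a mean log2 signal of 6.61 in control mice that lay under the lowest mean tested. Adcy8 thus entered the test through the calorie restricted mice, where it was high, and its p-value is to be read with that limit. It did not pass with calorie restricted replicates 3 and 5 left out, at 1.87 (limma adjusted p = 0.0653). In the fit with RNA quality as a covariate, Ppp3cb was -1.51 (limma adjusted p = 0.00751), Pde1b 1.31 (0.00974), Ryr3 -0.64 (0.135) and Adcy8 1.65 (0.130). Ppp3ca and Ppp3r1, the other abundant calcineurin subunits, did not pass, with 0.55 ± 0.35 (limma adjusted p = 0.304) and 0.21 ± 0.25 (limma adjusted p = 0.608).

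**Figure D4:**
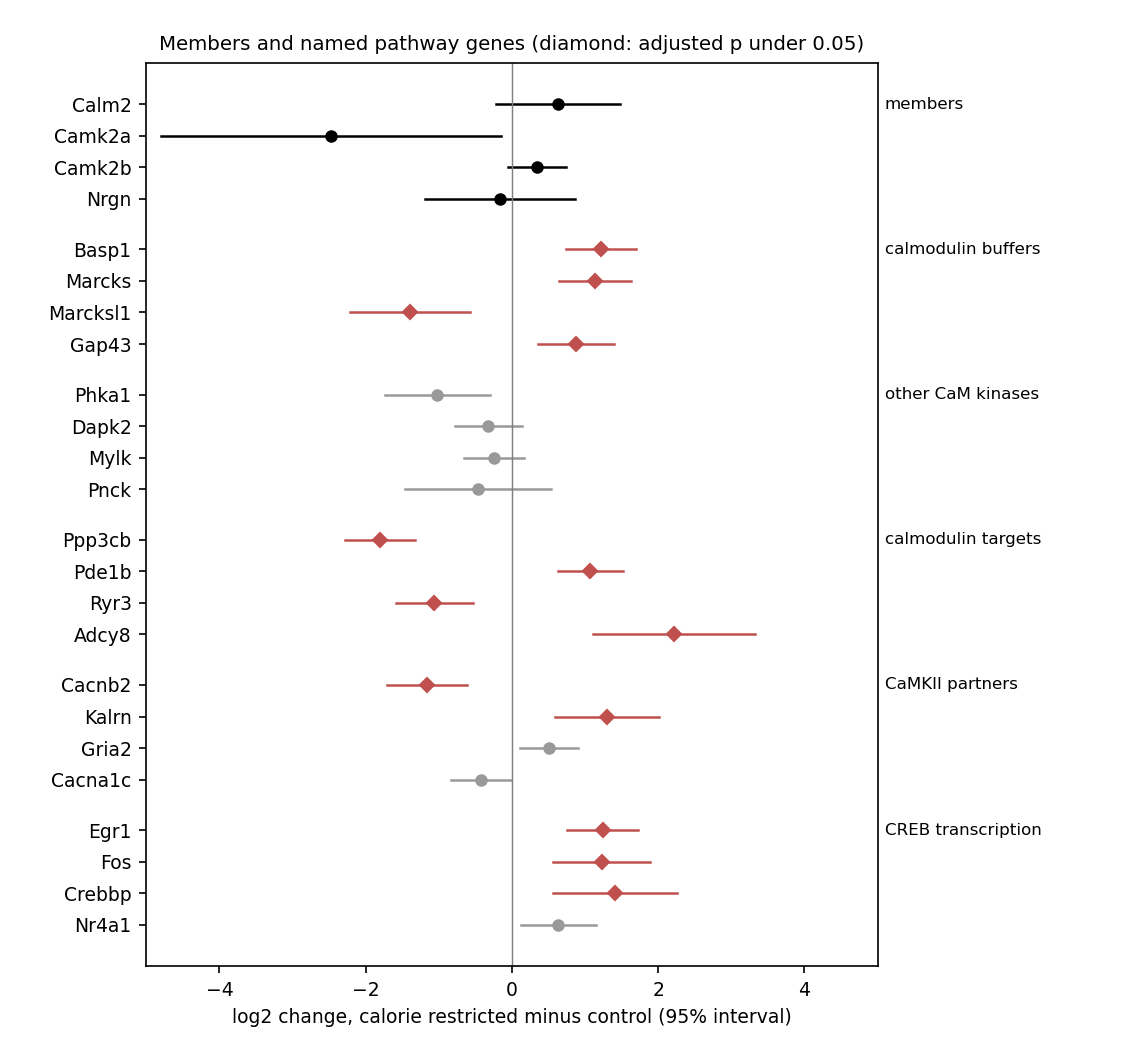
log2 change with its 95% interval (x axis, calorie restricted minus control, n = 5 each) for the 4 tested members (black) and the 4 genes with the smallest p in each of 5 pathway lists; red diamonds passed a limma adjusted p of 0.05. The Camk2a interval runs from -4.80 to -0.14 and is the widest drawn, and Camk2a entered the test through its control mean of 8.97 (6.50 under calorie restriction). Adcy8 entered through its calorie restricted mean of 8.83 (6.61 under the control diet).

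Of 9 tested partners and substrates of CaMKII at the synapse, 1 rose and 1 fell, with a median change of 0.12. Kalrn, a guanine nucleotide exchange factor of dendritic spines, rose by 1.30 ± 0.33 (SE; limma adjusted p = 0.0289), and had 0.70 under quantile normalization (limma adjusted p = 0.0847). Cacnb2, a beta subunit of calcium channels, fell by 1.16 ± 0.25 (limma adjusted p = 0.0164). Neither passed with RNA quality as a covariate, Kalrn at 0.55 (limma adjusted p = 0.210) and Cacnb2 at -0.64 (0.105). Gria2, an AMPA receptor subunit, at 0.51 ± 0.18 (limma adjusted p = 0.0815), and Cacna1c, an L-type calcium channel, at -0.42 ± 0.19 (limma adjusted p = 0.159), missed the threshold. The 2 other tested probe sets of Gria2 had the opposite direction.

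Of 13 tested genes in the list of CaM kinase IV and CREB transcription, 3 rose and 0 fell, with a median change of 0.10. The list is mixed and also holds the Mef2 factors and Hdac5. Egr1 had 2988, 2815, 2774, 1507 and 2599 in calorie restricted replicates 1 to 5, against 854, 988, 1137, 1432 and 887 in control replicates 1 to 5. All calorie restricted mice were above all control mice, and Egr1, an activity-induced transcription factor, rose by 1.25 ± 0.22 (SE; limma adjusted p = 0.00898). Fos rose by 1.23 ± 0.31 (limma adjusted p = 0.0273) and Crebbp, a coactivator of CREB, by 1.41 ± 0.39 (limma adjusted p = 0.0390), and in both the diets overlapped. With calorie restricted replicates 3 and 5 left out, Fos stood at 1.04 (limma adjusted p = 0.0619) and Crebbp at 0.81 (limma adjusted p = 0.0618). Adding RNA quality as a covariate gave 1.21 for Egr1 (limma adjusted p = 0.0306), 0.93 for Fos (0.148) and 0.45 for Crebbp (0.328). Nr4a1, an activity-induced nuclear receptor, missed the threshold at 0.63 ± 0.24 (limma adjusted p = 0.0939).

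**Figure D5:**
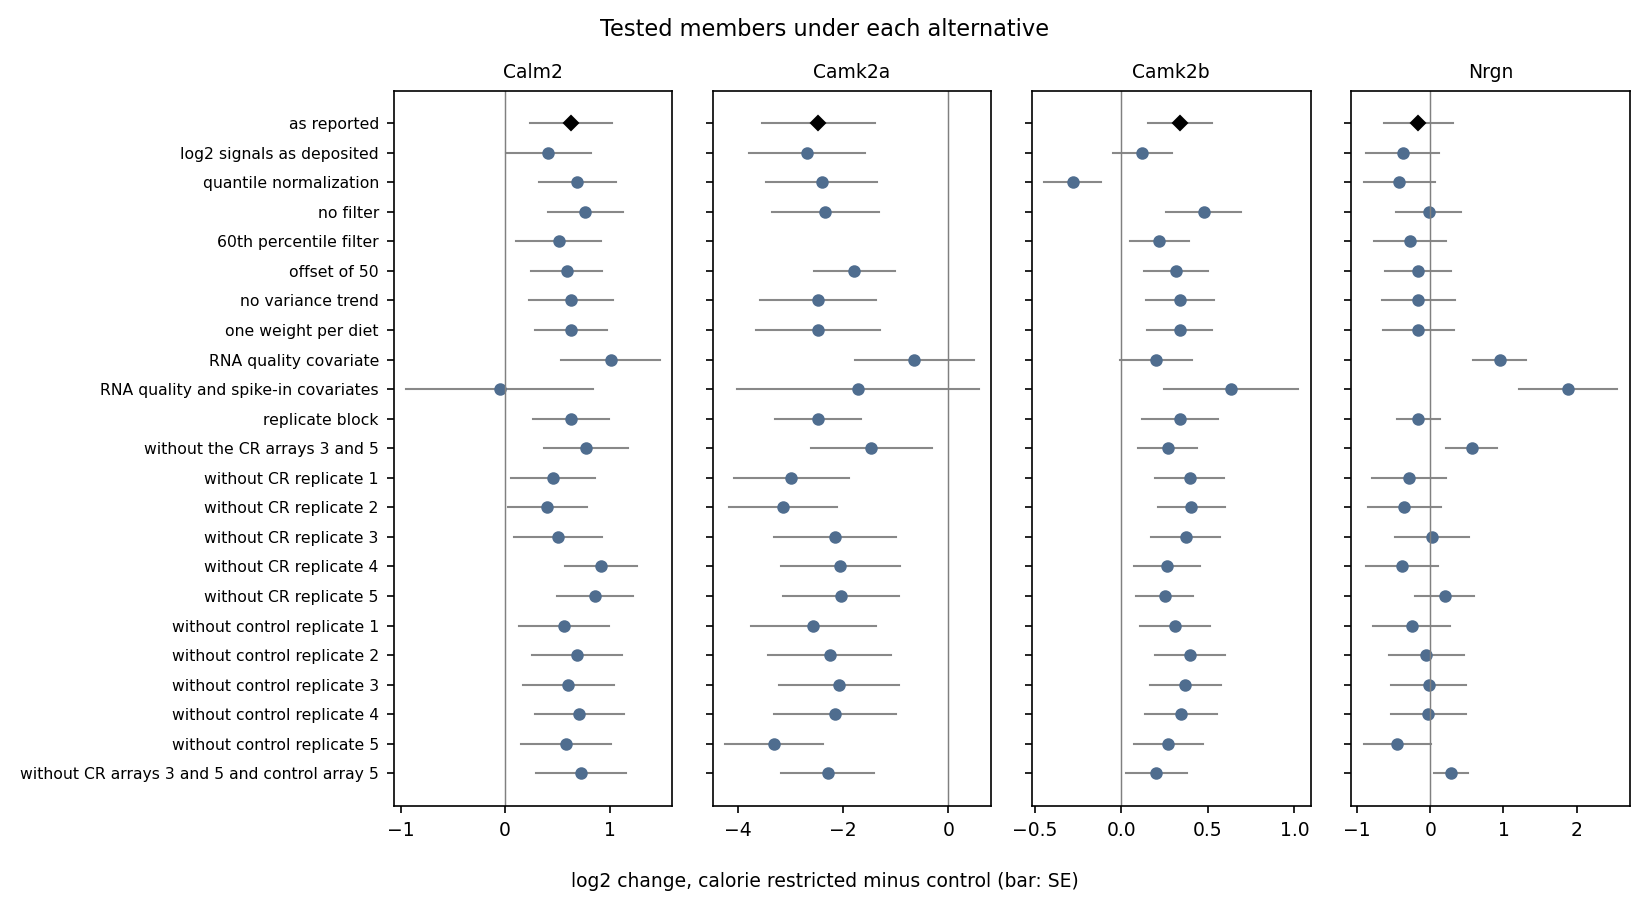
log2 change (x axis, calorie restricted minus control; bar, SE) of the 4 tested members as reported (black diamond) and under each alternative. Camk2a stays below 0 in the 21 alternatives that tested it, while Nrgn lies above 0 in 6 of 22.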

How the data were processed

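Hippocampal RNA of 10 mice was measured on Affymetrix arrays, 1 mouse per array. The deposited intensity values are on a linear scale and come from the authors' MAS5 processing (per the submitters' processing notes, which name no version). The members and lists were chosen with earlier results of these data known. Values under 1 (41 of 124880) were set to 1, and log2 signals were taken. The 66 control probe sets and probe sets with a mean under the 40th percentile were left out. Each array was centred on its median over the 7453 tested probe sets, because the deposited scaling left a median change of -0.15. It was 0.062 after centring. The test was limma 3.58.1 (lmFit, eBayes with a variance trend; R 4.3.3), with Benjamini-Hochberg adjustment. The fit was tested on simulated data that had the same spread in both diets, unlike these arrays. It called 2% of changes of 0.5 log2 units and 30% of changes of 1. For changes of 2 and 3 it called 88% and 94%. A member that did not pass can therefore still differ by 1 log2 unit or less. Symbols came from the platform's annotation table: 10833 probe sets have 1 symbol, 396 several and 1193 none. Of the members' probe sets each was reported on its own. In the pathway lists the tested probe set with the highest mean stood for a gene, and up to 4 genes per list with the smallest p are named; others named were chosen after their values were seen. Replicate numbers did not pair the mice. The number of arrays limits the precision, and scan dates were not used.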

Additional observations from a re-analysis of the deposited data

How the results depend on the processing

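No tested member passed in limma as reported or under any alternative, with 0 or 1 at an unadjusted p under 0.05 (4 of 7 without the filter). The lowest limma adjusted p over the alternatives was 0.0537 for Camk2a, 0.113 for Calm2, 0.161 for Camk2b and 0.139 for Nrgn. Camk2a kept its direction in all 21 alternatives that tested it, from -3.31 to -2.04 with 1 array left out. Calm2 turned to -0.052 once spike-in signal joined RNA quality as a covariate, and Camk2b to -0.28 under quantile normalization. Nrgn turned to 0.95 with RNA quality as a covariate, 1.88 with both covariates, 0.57 without the calorie restricted arrays 3 and 5, and 0.28 without these and control array 5, a setting chosen after seeing the data; with 1 array left out it ran from -0.45 to 0.20. The count of 13 pathway calls became 7 with RNA quality as a covariate, of which 4 were among the 13, and 0 with both covariates (12 of 52 at an unadjusted p under 0.05) and 4 at a threshold of 0.01, and ran from 7 to 16 with 1 array left out. The count was 17 of 68 with every probe set counted. The count of 841 over all probe sets became 395 with RNA quality, 1 with both covariates, 539 with the replicate number as a replicate block and 140 at 0.01, and ran from 286 to 1188 with 1 array left out. RNA quality and spike-in signal did not overlap between the diets, so the fits with them cannot tell diet apart from either. The causes were not tested. Same-numbered mice deviated together only weakly, with correlations from -0.076 to 0.17 and 1 of 5 best matched to its own number, and the replicate block left 0 members past the threshold. Camk2d, Camk4 and both Camk2a probe sets have signals near the bottom of the scale, where the size of a change is least certain.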

Other observations

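The low Camk2a signal of control mouse 5 was shared by a small set of other transcripts. Among tested probe sets with 1 symbol, 23 lay 2 or more log2 units under the mean of the other 4 control mice in that mouse, and Camk2a lay furthest below. They were picked after their values were seen, so the counts describe these arrays only. In 14 of the 23, calorie restricted mice 3, 4 and 5 were also all below the lowest of control mice 1 to 4, and in 11 all 5 calorie restricted mice were. Besides Nsmf, Ywhag and Vamp2 they included Kif5a, a kinesin motor of axonal transport, with 921, 565, 109, 216 and 116 in calorie restricted replicates 1 to 5, against 276 in control mouse 5 and 1220.2 to 1392 in the other control mice. Psap, the precursor of lysosomal saposins, had 498, 384, 9.26, 61.6 and 8.74 in calorie restricted mice, against 199 in control mouse 5 and 710.4 to 1204 in the other control mice. Arf3, a small GTPase of the Golgi, had 210.2, 148, 72.3, 56.6 and 87.3 in calorie restricted mice, against 98.2 in control mouse 5 and 389 to 802 in the other control mice. It was the 1 of the 23 that passed, with a change of -1.92 (limma adjusted p = 0.0412). Its log2 mean was 6.67 under calorie restriction, below 6.85, and 8.59 under the control diet. Arf3 thus entered the test through the control mice, where it was high, and its p-value is to be read with that limit. The change was below 0 in 19 of the 23, and over all tested probe sets 54% of changes were above 0. The 23 were picked by control values that enter the change, so this count is no test of diet. For the counts of 14 and 11 no share over all tested probe sets was computed, so nothing is concluded from them.

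Not all of the 23 followed this pattern. Mt3, the neuronal metallothionein, had 8018, 6236, 12089, 20854 and 10798 in calorie restricted mice, against 2295 in control mouse 5 and 6079 to 16056 in the other control mice.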
